A study of Mus musculus with 6 samples.

Results

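Genes of DNA repair and recombination were followed in mouse oocytes that lack Lsd1, the common name of Kdm1a, a histone lysine demethylase. The set was defined by gene symbol: the Fanc, Rad, Xrcc1 to Xrcc3, Msh, Mlh, Pms, Brca, Neil and Parp families, the Ercc genes other than those of the TFIIH helicases, and Ogg1, Polh, Poli, Polk, Polq, Atm, Atr, Chek1, Chek2, Hfm1, Dmc1 and Spo11. It held 77 of the 23284 genes in the deposited tables. The samples were 3 Lsd1 KO and 3 Control samples, all fully grown oocytes at the germinal vesicle (GV) stage on a mixed C57BL/6-129 background. Each held 100 oocytes, from females aged 4 to 6 weeks primed 48 hours earlier with 5 IU of PMSG, a gonadotrophin that drives follicle growth. Both genotypes had this hormone treatment. The sources used here give neither the driver of the deletion, nor the alleles behind the word Control, nor the number of females behind a sample.

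A GV oocyte rests in prophase of the first meiotic division, after the programmed DNA breaks of meiosis have been made and repaired in the fetal ovary. It keeps that genome for weeks to months and stores mRNA for the divisions and the early embryo. The mRNA of repair genes is known to be present in it although it does not replicate DNA. The Fanconi pathway and homologous recombination deal with crosslinks and broken chromosomes, mismatch repair with replication errors, nucleotide excision repair with bulky damage, and base excision repair with oxidised or deaminated bases, while ATM, ATR and their target kinases signal that damage is present.

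Total counts in genes were 10764095 to 12334683 in Lsd1 KO libraries and 10735422 to 13035045 in Control libraries. Levels are CPM, the counts scaled to a common library size with TMM factors, and levels of different genes are compared per kilobase of exon. Kdm1a itself had 47, 31 and 36 counts in Lsd1 KO replicates 1 to 3 and 799, 962 and 492 counts in Control replicates 1 to 3, so each library matched its label (log2 fold change -4.28 ± 0.27 SE, adjusted p = 4.58e-06). The 9 oocyte markers summed to 30054 to 34348 CPM in Lsd1 KO oocytes and 19386 to 22500 CPM in Control, with none at 0. Without Gdf9, the most abundant of them and called higher, the sums were 15572 to 17398 CPM in Lsd1 KO oocytes and 12371 to 16915 CPM in Control; Oosp1 was also called higher, and Mos was called lower, at 142 to 166 CPM in Lsd1 KO oocytes and 323 to 342 CPM in Control. The 10 granulosa markers summed to 360 to 465 CPM in Lsd1 KO oocytes and 126 to 146 CPM in Control, and of these the aromatase gene Cyp19a1 was at 239 to 405 CPM in Lsd1 KO oocytes and 28.6 to 49.2 CPM in Control. Without Cyp19a1 the sums were 67.5, 60.7 and 121 CPM in Lsd1 KO oocytes and 97.3, 95.3 and 97.1 CPM in Control. Inha was called higher with Cyp19a1, and Nr5a2 was called lower, at 25.7 to 33.2 CPM in Lsd1 KO oocytes and 67.5 to 73.0 CPM in Control. The 8 theca and stroma markers summed to 10.6 to 13.2 CPM in Lsd1 KO oocytes and 2.03 to 3.25 CPM in Control. Dcn, called higher, was at 7.13 to 7.81 CPM in Lsd1 KO oocytes and 0.277 to 0.603 CPM in Control. Without Dcn the sums were 3.21 to 5.39 CPM in Lsd1 KO oocytes and 1.76 to 2.89 CPM in Control. Pdgfra and Lhcgr, which failed the filter, went the other way. Pdgfra was at 0.0902 to 0.718 CPM in Lsd1 KO oocytes and 0.753 to 1.17 CPM in Control. The 9 blood and immune markers summed to 7.94 to 71.5 CPM in Lsd1 KO oocytes and 4.97 to 21.0 CPM in Control, with both globin genes at 0. The part of these markers in the results below was not tested. In bulk samples such as these, fewer cells of a type and less RNA per cell cannot be told apart.

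Most repair genes had no called change in Lsd1 KO oocytes, and the calls went in both directions. Of the 77 genes, 72 passed the filter on low counts, and among these 8 were higher in Lsd1 KO, 4 were lower and 60 did not pass, by edgeR's quasi-likelihood test at an adjusted p under 0.05. That is 16.7% of the repair genes tested, where 21.3% of all 12935 genes tested were called. By direction, 11.1% of them were higher, beside 11.0% of all genes, and 5.56% were lower, beside 10.3% of all genes. The shares are near or below the background, so the counts are no result about repair genes as a class. The same background applies to the counts by role below, each of which rests on 2 to 16 genes. The median log2 fold change was 0.0052 over the repair genes tested and -0.013 over all genes tested. Without Lsd1 KO replicate 1, 4 were higher and 2 lower, and without Lsd1 KO replicate 2 or Control replicate 1, 5 were higher and 2 lower. Without Lsd1 KO replicate 3, 6 were higher and 2 lower. Parp6, Parp4, Fancd2, Hfm1 and Neil2 passed in all 6 fits that leave out 1 library.

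**Figure D1:**
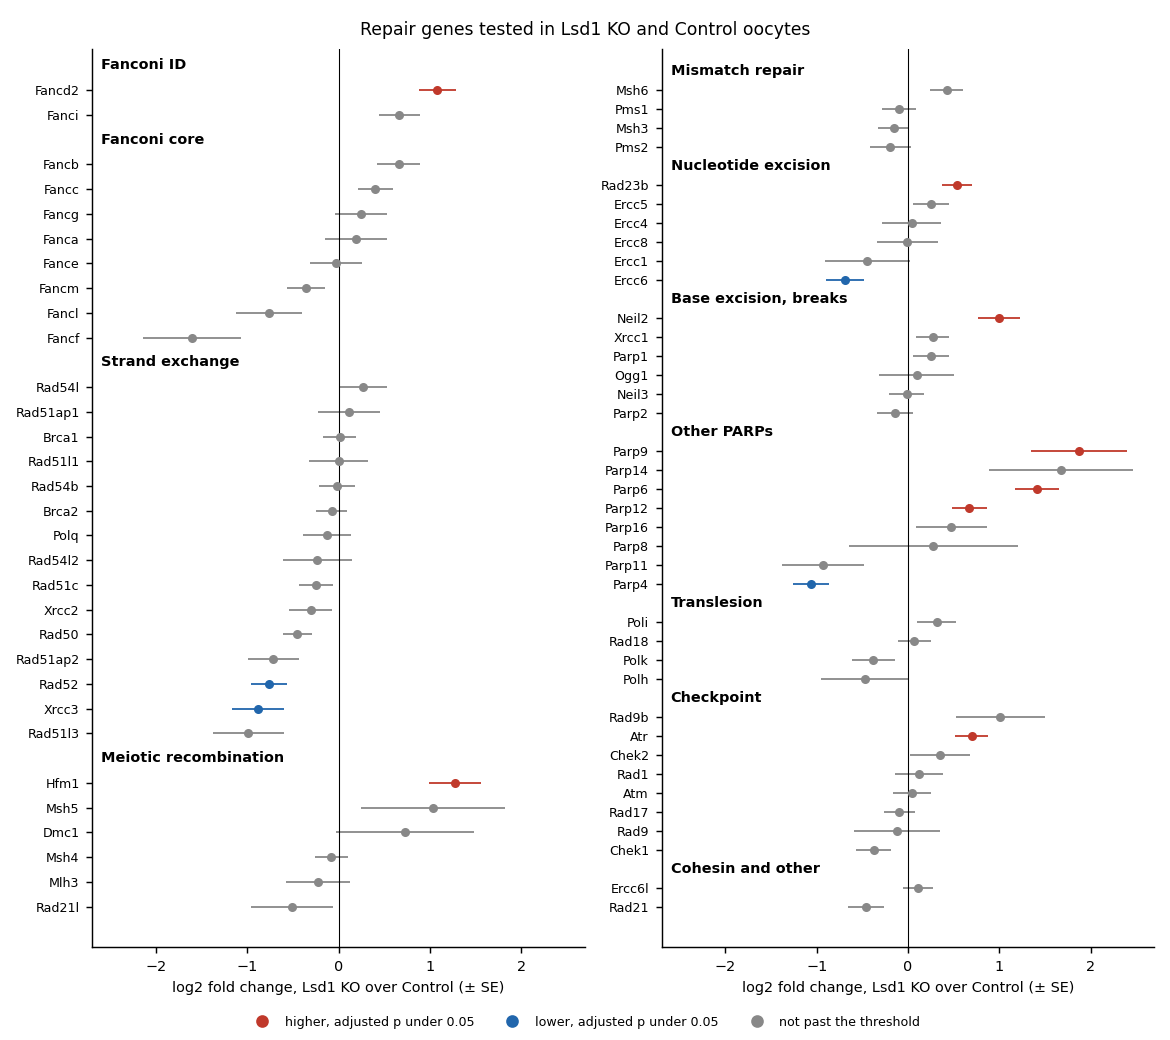
Log2 fold change of Lsd1 KO over Control with its SE for 69 of the 72 repair genes tested, grouped by role, with genes called higher in red, genes called lower in blue and the others in grey. Genes listed under 2 roles are drawn once, under meiotic recombination, and the points run from Parp9 at 1.87 to Fancf at -1.61, on both sides of 0.

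The 72 genes were spread over the range of expression of the oocyte. Their median level was 5.94 CPM per kilobase in Lsd1 KO oocytes and 5.54 in Control, beside 5.58 in Lsd1 KO oocytes and 5.54 in Control over all genes tested. Of the 71 with a unique position, 37 lay above the median level of all genes. The interferon-inducible ADP-ribosyltransferase gene Parp12 was the most abundant, at 252 CPM per kilobase in Lsd1 KO oocytes and 158 in Control. The checkpoint kinase gene Chek1 followed, at 123 CPM per kilobase in Lsd1 KO oocytes and 159 in Control. Neil3, Rad50, Brca2, Rad23b and Msh6 formed the next tier, all between 37.1 and 71.0 CPM per kilobase in either genotype. The median exon length of the repair genes, 4646 bases, was longer than that of all genes tested, 3683 bases, and their median GC content was 46.2% against 49.1%. A correction for length and GC content kept all 12 calls.

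**Figure D2:**
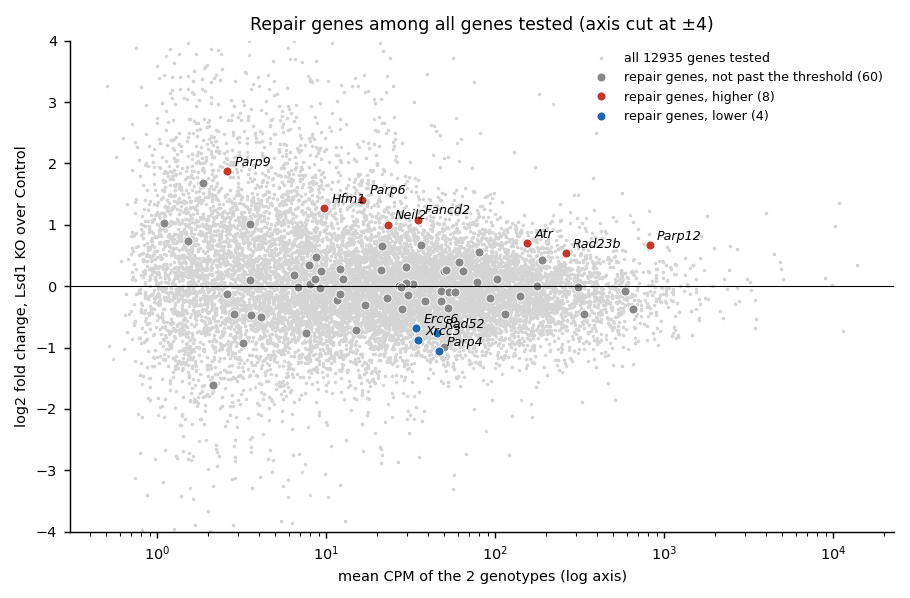
Log2 fold change of Lsd1 KO over Control against the mean CPM of both genotypes (log axis) for all 12935 genes tested, in light grey, with the repair genes drawn over them. The 60 repair genes that did not pass lie between -1.61 and 1.68 on the log2 scale, and the called genes run from Parp9, at 4.07 CPM in Lsd1 KO oocytes and 1.11 CPM in Control, to Parp12, at 1006 CPM in Lsd1 KO oocytes and 632 CPM in Control.

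Promoters are shown for 4 genes with different outcomes: Hfm1 and Parp6, which were higher in Lsd1 KO, Xrcc3, which was lower, and Brca2, which did not pass. Each is the 250 bases before the RefSeq start on build GRCm38.p6, read 5′ to 3′ on the gene's strand, and capitals mark matches to a motif on either strand.
Hfm1, chr5:106925891-106926140, minus strand: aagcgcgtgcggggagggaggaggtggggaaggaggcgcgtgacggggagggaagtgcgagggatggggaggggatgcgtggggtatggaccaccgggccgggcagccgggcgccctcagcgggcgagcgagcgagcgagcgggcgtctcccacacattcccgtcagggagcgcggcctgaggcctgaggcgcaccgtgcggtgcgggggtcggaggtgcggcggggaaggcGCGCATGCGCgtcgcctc
Parp6, chr9:59617034-59617283, plus strand: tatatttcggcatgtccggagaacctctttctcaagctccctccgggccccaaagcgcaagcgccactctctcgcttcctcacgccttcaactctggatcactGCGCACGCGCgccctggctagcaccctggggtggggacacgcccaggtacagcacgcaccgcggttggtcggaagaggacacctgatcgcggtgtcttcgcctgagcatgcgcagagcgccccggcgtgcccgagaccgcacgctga
Xrcc3, chr12:111813880-111814129, minus strand: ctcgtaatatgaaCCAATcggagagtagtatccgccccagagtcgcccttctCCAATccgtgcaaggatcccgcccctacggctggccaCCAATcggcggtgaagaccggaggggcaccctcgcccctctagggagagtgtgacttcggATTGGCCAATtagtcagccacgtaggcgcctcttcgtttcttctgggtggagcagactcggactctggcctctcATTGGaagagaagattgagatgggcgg
Brca2, chr5:150522371-150522620, plus strand: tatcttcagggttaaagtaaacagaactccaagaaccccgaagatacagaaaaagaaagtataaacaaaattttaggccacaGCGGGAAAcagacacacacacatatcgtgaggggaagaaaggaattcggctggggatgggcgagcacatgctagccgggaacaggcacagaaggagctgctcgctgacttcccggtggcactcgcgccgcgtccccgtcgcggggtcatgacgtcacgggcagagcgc
In Hfm1 and Parp6 the capitals are an NRF1-type motif. In Xrcc3 they are CCAAT boxes, searched as CCAAT, with 6 matches of which a pair adjoin. In Brca2 they are an E2F-type motif, searched as TTTGGCGC, TTTCGCGC or TTTCCCGC. Of the 77 genes, 58 had a promoter in the RefSeq table. The NRF1-type motif was in 4 of them (6.90%), Hfm1, Parp6, Ercc4 and Polh, where 1.83% of all 32851 promoters and 4.56% of genes tested held it. Of these 4, Hfm1 and Parp6, the 2 printed above, were called, and Ercc4 and Polh were not. The E2F-type motif was in 5 (8.62%), Brca2, Chek2, Fancg, Msh3 and Msh5, where 1.53% of all promoters and 3.35% of genes tested held it, and none of the 5 was called. The CCAAT box was in 28 (48.3%), where 33.8% of all promoters and 40.8% of genes tested held it. Of the 28, Parp4, Rad23b and Xrcc3 were called. The E-box CACGTG was in 5 (8.62%), of which Ercc6 was called, where 6.02% of all promoters and 9.65% of genes tested held it. Of all genes tested 21.3% were called, so the calls given for each motif are no result about that motif. A match is a description of these letters and not of a factor at work.

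The Fanconi pathway is built around the FANCD2 and FANCI proteins, a clamp that is ubiquitinated at stalled forks and crosslinks by a core complex. Fancd2 rose in Lsd1 KO, where its 3 libraries held 45.5, 52.0 and 44.3 CPM, against 17.9, 23.1 and 25.8 CPM in Control. Every Lsd1 KO library lay above every Control library. The means were 47.2 ± 4.14 CPM in Lsd1 KO oocytes and 22.3 ± 4.01 CPM in Control (SD, n = 3 each), a log2 fold change of 1.08 ± 0.20 (SE; edgeR adjusted p = 0.00331), or 2.12-fold. Fancd2 spans 113481676 to 113547011 of mm9 chromosome 6. The gene overlaps 4931417G12Rik over 257 bases on the opposite strand, which was also higher, at 22.1 ± 5.08 CPM in Lsd1 KO oocytes and 10.9 ± 3.99 CPM in Control (log2 1.02 ± 0.31). The use of strand in counting is not stated in the sources used here, so reads in that stretch cannot be told apart.

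Fanci, the gene of the partner in the clamp, was at 39.0, 41.5 and 53.0 CPM in Lsd1 KO oocytes and 20.9, 34.7 and 28.5 CPM in Control. Its groups did not overlap either, and its log2 fold change of 0.66 ± 0.23 just missed the threshold (adjusted p = 0.0531), passing with the DESeq2 Wald test, with scaling to library totals, with either other filter, and without Control replicate 2. None of the 8 core complex genes passed. Fancb and Fancc, the most abundant of them with Fancm, were at 26.0 ± 3.75 and 69.3 ± 14.5 CPM in Lsd1 KO oocytes and at 16.5 ± 3.31 and 52.5 ± 2.18 CPM in Control (log2 0.66 ± 0.23 and 0.40 ± 0.19, adjusted p = 0.0633 and 0.159), and Fancb passed with the filter of 10 CPM in 3 libraries and with the length and GC correction. The translocase gene Fancm was at 46.2 ± 8.47 CPM in Lsd1 KO oocytes and 59.3 ± 10.9 CPM in Control (-0.36 ± 0.21). Fancf, an adaptor of the core complex, sat just outside the threshold on the other side. It had 0.641, 0.992 and 1.53 CPM in Lsd1 KO, from 8 to 17 counts, and 3.42, 3.09 and 3.16 CPM in Control, from 35 to 41 counts (log2 -1.61 ± 0.54, adjusted p = 0.0504). Fancf passed with DESeq2 size factors, the DESeq2 Wald test, limma-voom and the length and GC correction, and in none of the 6 fits that leave out 1 library. The ubiquitin ligase gene Fancl was at 5.59 ± 1.63 CPM in Lsd1 KO oocytes and 9.52 ± 3.28 CPM in Control (-0.76 ± 0.36, adjusted p = 0.153). Fanca, Fance and Fancg had log2 fold changes of 0.19, -0.03 and 0.24.

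Homologous recombination repairs a broken chromosome from an intact copy, with the help of mediators such as BRCA2 and motors such as RAD54. The list for this role also took in Polq and Rad54l2, whose products are known mainly for other roles. In this list 2 of 16 genes tested were lower and none higher. Of all genes tested 10.3% were lower and 11.0% higher, so the count is near the background. A positive log2 fold change was found in 4 of the 16, beside 6364 of all 12935 genes tested, and the median was -0.21, beside -0.013. Rad52, whose protein anneals complementary strands, fell to 32.0, 29.7 and 39.1 CPM in Lsd1 KO oocytes, against 63.9, 47.1 and 60.5 CPM in Control. The groups did not overlap, with means of 33.6 ± 4.89 CPM in Lsd1 KO oocytes and 57.2 ± 8.90 CPM in Control (log2 -0.77 ± 0.20, edgeR adjusted p = 0.0165). Rad52, at 119852716 to 119872846 of mm9 chromosome 6, lost its call when either replicate 1 was left out, Lsd1 KO or Control (adjusted p up to 0.0781).

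Xrcc3, whose product works in a complex with RAD51C, was the weakest of the 12 calls. It was at 30.8, 26.8 and 16.1 CPM in Lsd1 KO oocytes and 42.7, 31.1 and 62.1 CPM in Control, groups that lie next to each other without overlap (log2 -0.88 ± 0.29, edgeR adjusted p = 0.0455). The call was kept in 1 of the 6 fits that leave out 1 library, without Control replicate 2 (adjusted p up to 0.173 in the others), and was lost with limma-voom and with a filter of 10 CPM in 3 libraries. Xrcc3 spans 113041403 to 113052084 on mm9 chromosome 12, of which 4653 bases overlap Klc1 on the opposite strand. Klc1 was higher, at 19.5 ± 1.30 CPM in Lsd1 KO oocytes and 10.7 ± 2.15 CPM in Control, and reads in the shared bases cannot be told apart. The gene listed as Rad51l3 (Rad51d) had a similar estimate but a wide spread, at 57.3, 17.2 and 25.9 CPM in Lsd1 KO oocytes and 73.8, 87.0 and 38.7 CPM in Control (log2 -0.99 ± 0.39, adjusted p = 0.0889). It passed when Lsd1 KO replicate 1 or Control replicate 3 was left out, and with no filter.

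Neither of the breast cancer susceptibility genes of the list passed. Brca1 was at 188, 184 and 157 CPM in Lsd1 KO oocytes and 152, 165 and 207 CPM in Control, and Brca2, one of the most abundant repair transcripts, at 606, 583 and 511 CPM in Lsd1 KO oocytes and 541, 665 and 588 CPM in Control. Their groups overlapped, with log2 fold changes of 0.01 ± 0.18 for Brca1 and -0.08 ± 0.17 for Brca2. Rad50, of the complex that senses and trims broken ends, was at 302, 271 and 270 CPM in Lsd1 KO oocytes and 389, 382 and 383 CPM in Control. This small separation (log2 -0.45 ± 0.16, adjusted p = 0.0621) passed only with the DESeq2 Wald test among the alternatives. The meiosis-associated Rad51ap2 was at 11.3 ± 2.53 CPM in Lsd1 KO oocytes and 18.6 ± 4.33 CPM in Control (-0.72 ± 0.28, adjusted p = 0.0869). The other 9 genes of the list had log2 fold changes between -0.31, in Xrcc2, and 0.27, in Rad54l. Among them, Rad54l2 encodes a relative of RAD54 that is known as a steroid receptor cofactor, and it varied widely: 70.5, 30.8 and 30.1 CPM in Lsd1 KO oocytes and 25.2, 67.3 and 62.1 CPM in Control.

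Meiotic recombination starts with breaks made by SPO11, which DMC1 then helps to pair, and the helicase HFM1, MSH4 with MSH5 and MLH3 carry a subset on to crossovers. These events are over by the GV stage, and Spo11 had 0 counts in all 6 libraries, where a count of 0 allows up to 0.241 to 0.271 CPM per library in Lsd1 KO oocytes and 0.226 to 0.277 CPM in Control (3 counts, counting error only). Dmc1 was low, at 1.12, 0.902 and 3.68 CPM in Lsd1 KO oocytes and 1.39, 1.73 and 0.271 CPM in Control (log2 0.73 ± 0.76, adjusted p = 0.526). Hfm1 was the 1 gene of the 7 tested that passed, where 21.3% of all genes tested did. It rose to 11.4, 14.9 and 14.9 CPM in Lsd1 KO oocytes, against 5.09, 5.57 and 6.32 CPM in Control, a wide gap between groups that were each tight (2.42-fold, log2 1.28 ± 0.29, edgeR adjusted p = 0.00889). Hfm1 lies on mm9 chromosome 5 from 107269211 to 107355340, and its promoter is the first of those printed above. Msh4, needed with Msh5 for crossovers, was the most abundant of the list, at 46.7 ± 3.49 CPM in Lsd1 KO oocytes and 49.3 ± 7.26 CPM in Control (-0.08 ± 0.18). Msh5, the partner of Msh4, was low, at 1.47 ± 1.07 CPM in Lsd1 KO oocytes and 0.709 ± 0.540 CPM in Control.

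In mismatch repair, where MSH proteins find the mismatch and MLH and PMS proteins license its removal, none of the 7 genes tested passed. Msh6, of the complex that finds base mismatches, was at 218 ± 36.6 CPM in Lsd1 KO oocytes and 162 ± 18.7 CPM in Control (0.42 ± 0.18, adjusted p = 0.120), passing only with the filter of 10 CPM in 3 libraries. Msh3, of the complex that finds small loops, was at 132 ± 13.5 CPM in Lsd1 KO oocytes and 148 ± 12.2 CPM in Control. Mlh3, Pms1 and Pms2 had log2 fold changes of -0.23, -0.10 and -0.19, with adjusted p from 0.577 in Pms2 to 0.737 in Pms1.

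Nucleotide excision repair opens the helix around a bulky lesion, found either by XPC with its partner RAD23B or by a stalled polymerase through the Cockayne syndrome proteins, of which ERCC6 is the remodeller. Of 6 genes tested, 1 was higher and 1 lower, where 21.3% of all genes tested were called in either direction. Rad23b rose to 283, 336 and 307 CPM in Lsd1 KO oocytes, against 211, 199 and 227 CPM in Control, without overlap (1.45-fold, log2 0.54 ± 0.16, edgeR adjusted p = 0.0351). Ercc6 fell to 23.9, 26.2 and 28.2 CPM in Lsd1 KO oocytes, against 33.0, 42.1 and 50.9 CPM in Control, also without overlap (log2 -0.69 ± 0.21, edgeR adjusted p = 0.0339). Both calls were near the threshold and were kept in 1 of the 6 fits that leave out 1 library, Rad23b without Control replicate 3 (adjusted p up to 0.116 in the others) and Ercc6 without Control replicate 1 (up to 0.140). Rad23b is on mm9 chromosome 4 from 55362915 to 55405109 and Ercc6 on chromosome 14 from 33326707 to 33394175. The nuclease genes Ercc5, Ercc4 and Ercc1 did not pass, at 53.8 ± 7.32, 8.12 ± 1.65 and 2.41 ± 0.735 CPM in Lsd1 KO oocytes and 45.4 ± 7.70, 7.89 ± 1.89 and 3.28 ± 0.816 CPM in Control. Ercc8, the ubiquitin ligase partner of ERCC6, had a log2 fold change of -0.01 ± 0.34.

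Base excision repair begins with a glycosylase that removes the damaged base, and PARP1, PARP2 and the scaffold XRCC1 attend the nick that follows. Neil2, a glycosylase for oxidised bases, rose to 33.0, 23.1 and 36.1 CPM in Lsd1 KO oocytes, against 13.7, 16.1 and 16.3 CPM in Control. All 3 Lsd1 KO libraries were above the highest Control library, replicate 2 by the least (log2 1.00 ± 0.23, edgeR adjusted p = 0.0101). The gene is on mm9 chromosome 14 from 63801280 to 63812378. Its relative Neil3 was the more abundant per kilobase, with 57.6 CPM per kilobase in Lsd1 KO oocytes where Neil2 had 15.9, and did not pass, at 273, 333 and 309 CPM in Lsd1 KO oocytes and 360, 237 and 326 CPM in Control (-0.01 ± 0.19). Ogg1, for 8-oxoguanine, was low in both genotypes, at 3.66 ± 0.0591 CPM in Lsd1 KO oocytes and 3.42 ± 0.962 CPM in Control. Neil1, with 10 counts in Lsd1 KO oocytes and 5 in Control, and Parp3, with 24 in Lsd1 KO oocytes and 4 in Control, were not tested. Xrcc1, Parp2 and, named after its values were seen, Parp1 did not pass, at 56.1 ± 5.71, 29.0 ± 3.64 and 70.3 ± 3.90 CPM in Lsd1 KO oocytes and 46.5 ± 3.89, 32.0 ± 3.58 and 59.0 ± 12.4 CPM in Control.

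The remaining PARP genes, whose products mostly attach single ADP-ribose units and are known for roles outside excision repair, held 4 of the 12 calls, 3 higher and 1 lower of 8 tested, where 11.0% of all genes tested were higher and 10.3% lower. Their median log2 fold change was 0.57, beside -0.013 over all genes tested. Parp6 rose to 24.7, 26.3 and 19.9 CPM in Lsd1 KO oocytes, against 8.23, 8.59 and 9.85 CPM in Control, so that the lowest Lsd1 KO library was above every Control library by a wide margin. It had the smallest adjusted p of the repair genes (2.66-fold, log2 1.41 ± 0.24, edgeR adjusted p = 0.00218) and lies on mm9 chromosome 9 from 59465091 to 59498086. Parp4, the PARP of the vault particle, moved the other way and fell to 32.0, 32.4 and 26.3 CPM in Lsd1 KO oocytes, against 62.4, 73.3 and 53.4 CPM in Control (log2 -1.06 ± 0.19, edgeR adjusted p = 0.00299, 2.09-fold lower). Parp4 spans 57194456 to 57278631 on mm9 chromosome 14, with the annotated transcript Gm16573 opposite 13253 of those bases. Parp12 rose to 1142, 1027 and 849 CPM in Lsd1 KO oocytes, against 517, 659 and 721 CPM in Control (log2 0.67 ± 0.19, edgeR adjusted p = 0.0263). Parp12, at 39036409 to 39068348 of mm9 chromosome 6, lost its call when replicate 1 or 2 of either genotype was left out (adjusted p up to 0.112).

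Parp9, an interferon-inducible gene whose product pairs with the ubiquitin ligase DTX3L, was much less abundant. It had 57, 34 and 51 counts in Lsd1 KO oocytes and 18, 9 and 11 counts in Control, which is 4.57, 3.07 and 4.58 CPM in Lsd1 KO oocytes and 1.66, 0.678 and 0.994 CPM in Control (3.66-fold, log2 1.87 ± 0.52, edgeR adjusted p = 0.0235). Leaving out Lsd1 KO replicate 1 or 3, or Control replicate 2, took the call away (adjusted p up to 0.0876). On mm9 chromosome 16 Parp9 runs from 35938556 to 35972691 and overlaps Dtx3l over 682 bases on the opposite strand. The annotated transcript Gm15564 lies opposite 5854 bases of Parp9. Dtx3l was higher as well, at 25.8 ± 3.34 CPM in Lsd1 KO oocytes and 8.53 ± 0.507 CPM in Control (log2 1.59 ± 0.24, adjusted p = 9.39e-04), and counts in the shared bases cannot be told apart. Another interferon-inducible member, Parp14, named after its values were seen, was high in 1 library, at 6.01, 1.35 and 1.17 CPM in Lsd1 KO oocytes and 1.29, 0.226 and 1.17 CPM in Control (adjusted p = 0.151). That library, Lsd1 KO replicate 1, also had the highest sum of immune markers, 71.5 CPM. The sum was 7.94 CPM in Lsd1 KO replicate 2 and 40.7 CPM in Lsd1 KO replicate 3. In Control replicates 1 to 3 it was 13.8, 4.97 and 21.0 CPM. The part of immune cells in the Parp9 and Parp14 values was not tested.

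Parp8, Parp16 and Parp11 did not pass. Parp8 stood out for its libraries: 13.7, 25.2 and 0.898 CPM in Lsd1 KO oocytes and 18.4, 13.9 and 0.542 CPM in Control, so that replicate 3 was far below the others in both genotypes, at 10 counts in Lsd1 KO oocytes and 6 in Control. Parp16, of the endoplasmic reticulum, was at 10.2 ± 1.49 CPM in Lsd1 KO oocytes and 7.30 ± 3.63 CPM in Control, and Parp11 at 2.22 ± 0.684 CPM in Lsd1 KO oocytes and 4.24 ± 1.08 CPM in Control. Parp10 had 11 counts in Lsd1 KO oocytes and 2 in Control and was not tested.

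**Figure D3:**
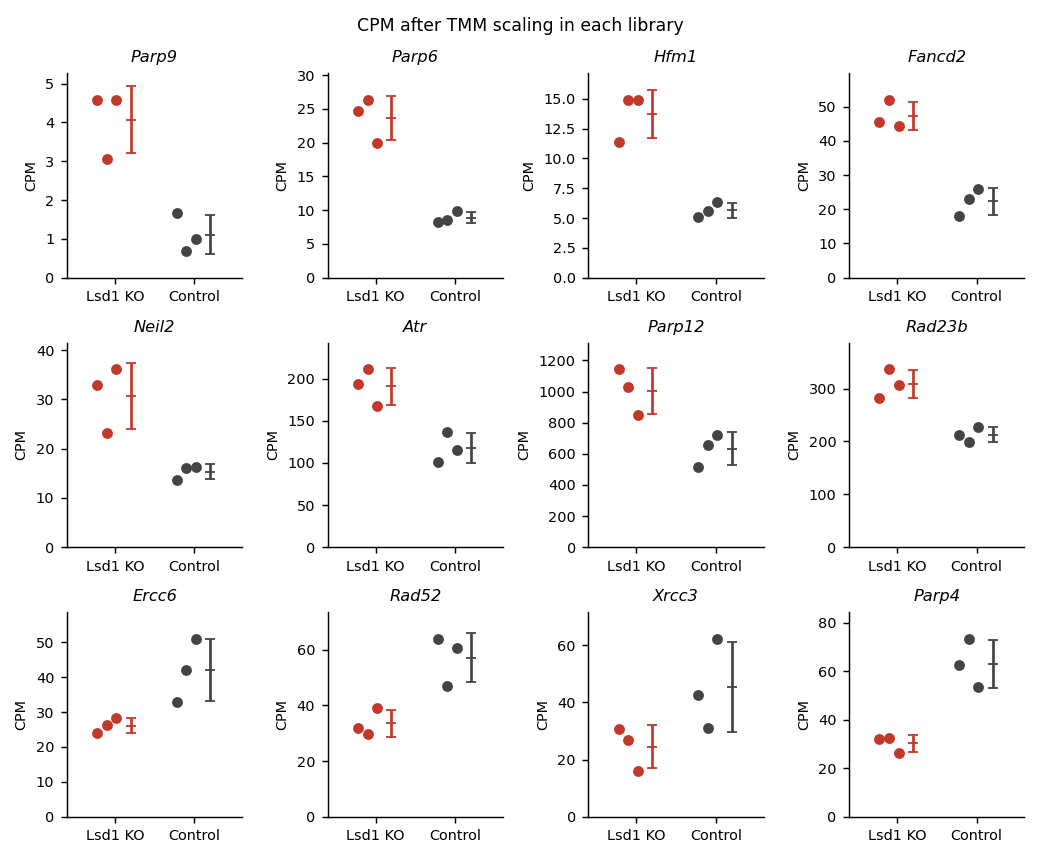
CPM after TMM scaling of the 12 called repair genes in each library, with Lsd1 KO on the left and Control on the right of every panel, 1 point per library and the mean ± SD beside them. Every panel has its own linear axis from 0, and in none of the 12 do the libraries of the genotypes overlap; the gap is narrowest in Xrcc3, between 30.8 CPM in Lsd1 KO oocytes and 31.1 CPM in Control.

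The lack of overlap was itself common: it held for 20 of the 72 repair genes tested (27.8%), 12 with Lsd1 KO above and 8 with Lsd1 KO below, where 38.7% of all genes tested showed it, 19.5% with Lsd1 KO above and 19.1% with Lsd1 KO below. Of these 20, 8 did not pass, among them Fancf, Fanci, Rad50, Fancb, Rad21, Fancc and Parp11. The called genes were picked by a test on these same libraries, so their lack of overlap is no separate support.

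Damage signalling runs through the kinases ATM, for broken ends, and ATR, for single-stranded DNA, and their targets CHEK2 and CHEK1. Of 8 checkpoint genes tested 1 was higher and none lower, near the background of 11.0% higher and 10.3% lower. Atr rose to 194, 211 and 168 CPM in Lsd1 KO oocytes, against 101, 137 and 115 CPM in Control, without overlap (1.62-fold, log2 0.70 ± 0.18, edgeR adjusted p = 0.0169). On mm9 chromosome 9 it spans 95758016 to 95852063, with the annotated transcript Gm16794 opposite 9596 of those bases. Leaving out Lsd1 KO replicate 1 or 2, or Control replicate 1, took the Atr call away (edgeR adjusted p up to 0.0752). Atm was at 33.0, 30.3 and 36.4 CPM in Lsd1 KO oocytes and 28.1, 39.9 and 28.6 CPM in Control (0.04 ± 0.21). The Atr count divided by the Atm count was 5.87, 6.96 and 4.61 in Lsd1 KO oocytes and 3.59, 3.44 and 4.02 in Control. This ratio does not depend on how libraries are scaled, but it restates the Atr call and is no separate support. Chek1 was at 551, 696 and 465 CPM in Lsd1 KO oocytes and 805, 656 and 760 CPM in Control, with overlap (-0.38 ± 0.19, adjusted p = 0.182). Chek2 was far lower than Chek1 per kilobase, at 3.92 CPM per kilobase in Lsd1 KO oocytes and 3.07 in Control, and did not pass (log2 0.35 ± 0.33). The Chek1 count divided by the Chek2 count was 56.8, 89.7 and 51.8 in Lsd1 KO oocytes and 134, 69.6 and 145 in Control, with overlap. The clamp loader gene Rad17 was at 55.5 ± 2.98 CPM in Lsd1 KO oocytes and 59.3 ± 3.92 CPM in Control, and the clamp genes Rad1 and Rad9 had log2 fold changes of 0.12 and -0.12. Rad9b, a second clamp subunit gene, was at 4.74 ± 1.26 CPM in Lsd1 KO oocytes and 2.35 ± 1.21 CPM in Control (1.01 ± 0.49, adjusted p = 0.161).

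Translesion synthesis lets a relaxed polymerase copy past damage, at a clamp marked by the ubiquitin ligase RAD18. None of its 4 genes passed. Rad18 was at 79.9 ± 2.64 CPM in Lsd1 KO oocytes and 76.1 ± 12.6 CPM in Control, Poli at 32.6 ± 2.78 CPM in Lsd1 KO oocytes and 26.2 ± 6.25 CPM in Control, and Polk at 24.5 ± 6.63 CPM in Lsd1 KO oocytes and 31.8 ± 5.38 CPM in Control. Their log2 fold changes and that of Polh lay between -0.47 and 0.31. The symbol rule also took in genes whose main known role is not repair: the cohesin subunits Rad21 and Rad21l, and Ercc6l, a helicase of stretched anaphase DNA. None passed. Rad21 was at 110, 103 and 76.2 CPM in Lsd1 KO oocytes and 120, 121 and 156 CPM in Control (-0.46 ± 0.19, adjusted p = 0.112), groups that do not overlap. Ercc6l was at 106 ± 7.19 CPM in Lsd1 KO oocytes and 98.5 ± 6.59 CPM in Control, and Rad21l at 3.41 ± 1.64 CPM in Lsd1 KO oocytes and 4.85 ± 1.51 CPM in Control.

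Repair genes outside the symbol rule were counted from a separate list of 83, of which 77 were found and 74 tested. Of these, 7 were higher and 8 lower in Lsd1 KO, 20.3% beside the 21.3% of all genes tested, with a median log2 fold change of 0.11. Without Lsd1 KO replicate 1, 4 were higher and 2 lower. Leaving out Lsd1 KO replicate 2 gave 5 lower, leaving out Lsd1 KO replicate 3 gave 2, and leaving out Control replicate 2 or 3 gave 4. Several were direct partners of the genes above. Clspn, whose product relays ATR activity to CHEK1, rose to 158 ± 30.8 CPM in Lsd1 KO oocytes, against 75.3 ± 16.8 CPM in Control (log2 1.07 ± 0.21, edgeR adjusted p = 0.00438). Rpa2, a subunit of the protein that coats single-stranded DNA, rose to 118 ± 20.3 CPM in Lsd1 KO oocytes, against 64.7 ± 8.26 CPM in Control (0.87 ± 0.19, edgeR adjusted p = 0.00712). In nucleotide excision repair Xpc, the partner of Rad23b, fell to 20.1 ± 2.18 CPM in Lsd1 KO oocytes, against 40.2 ± 3.76 CPM in Control (edgeR adjusted p = 0.00410), and Ddb1, of the ubiquitin ligase that marks ultraviolet lesions, rose to 552 ± 90.0 CPM in Lsd1 KO oocytes, against 297 ± 57.8 CPM in Control (0.90 ± 0.20). The uracil glycosylase gene Ung rose to 285 ± 84.4 CPM in Lsd1 KO oocytes, against 139 ± 12.8 CPM in Control (1.04 ± 0.22). Rmi1, of the BLM complex that takes apart recombination junctions, fell to 115 ± 19.5 CPM in Lsd1 KO oocytes, against 224 ± 23.6 CPM in Control (-0.97 ± 0.18, edgeR adjusted p = 0.00370). The junction nuclease gene Gen1 (-0.69 ± 0.19) and the nuclease scaffold gene Slx4 (-0.68 ± 0.19) were also lower. Other genes of junction processing, named after their values were seen, did not pass: Blm (0.39 ± 0.18), Top3a (0.89 ± 0.54), Slx1b (0.34 ± 0.41), Mus81 (0.12 ± 0.17), Eme1 (-0.90 ± 0.33) and Eme2 (-0.07 ± 0.46). Clspn, Rpa2, Xpc, Ddb1, Ung and Rmi1 passed in all 6 fits that leave out 1 library, Gen1 in 3 (adjusted p up to 0.0718) and Slx4 in 2 (up to 0.0952).

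Usp1 and Wdr48, named after their values were seen, encode the enzyme pair that takes ubiquitin off the FANCD2 and FANCI clamp. Usp1 was at 94.4, 85.3 and 82.5 CPM in Lsd1 KO oocytes and 134, 112 and 142 CPM in Control (log2 -0.56 ± 0.17, edgeR adjusted p = 0.0342). Wdr48 was at 51.2, 66.9 and 50.9 CPM in Lsd1 KO oocytes and 81.9, 83.5 and 103 CPM in Control (-0.67 ± 0.19, edgeR adjusted p = 0.0256). Both were lower in every Lsd1 KO library than in any Control library, while Fancd2 was higher in every one. Of all genes tested, 38.7% had no overlap between genotypes in either direction. A joint change of these genes was not tested. The Fancd2 count divided by the Usp1 count was 0.482, 0.609 and 0.536 in Lsd1 KO oocytes and 0.134, 0.207 and 0.182 in Control. That ratio restates the calls of both genes and is no further support. Ube2t, another gene of the pathway named after its values were seen, did not pass (log2 0.07 ± 0.17, edgeR adjusted p = 0.814). Usp1 kept its call in 1 and Wdr48 in 2 of the 6 fits that leave out 1 library (adjusted p up to 0.140 and 0.125).

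**Figure D4:**
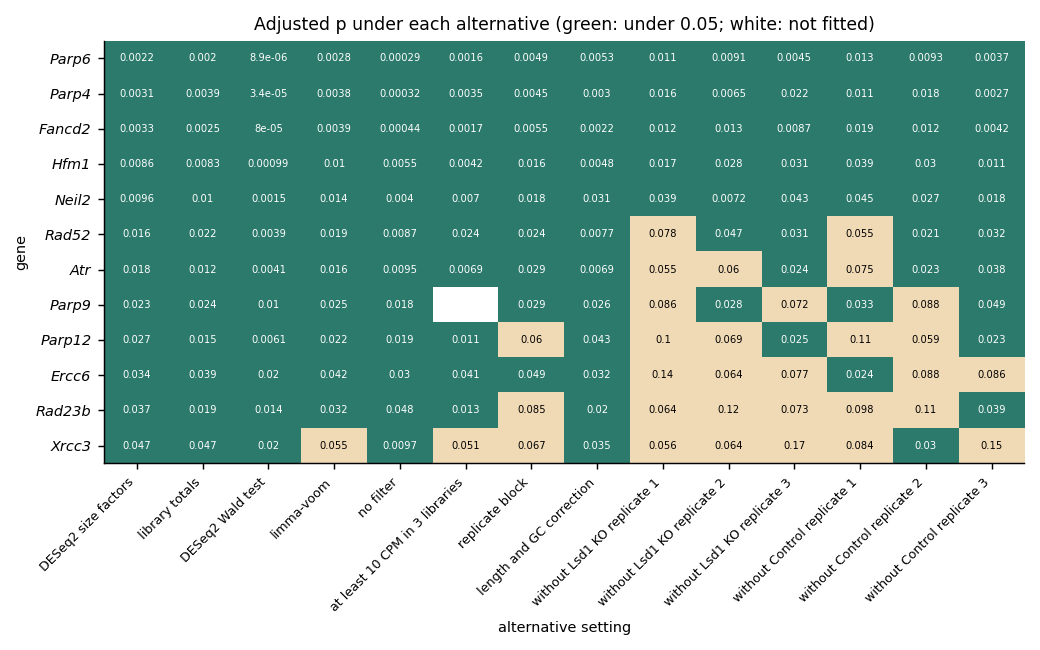
Adjusted p of the 12 called repair genes (rows) under each alternative setting (columns), green where it is under 0.05, tan where it is not and white where the gene was not fitted. The top 5 rows, Parp6, Parp4, Fancd2, Hfm1 and Neil2, are green throughout, and most losses are in the columns that leave out 1 library.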

How the data were processed

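Per the labels' protocols, oocytes were lysed without RNA extraction, RNA was amplified with the NuGEN Ovation system, and paired-end libraries followed from sheared cDNA. The deposited files give raw read counts per gene symbol, made by the authors; HTSeq 0.5.3p9, TopHat2 2.0.7, CASAVA 1.8.2 and the build mm9 stand in the submitters' processing notes. The sources used here do not state the annotation, the options or the use of strand.

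Genes were filtered with filterByExpr (minimum count 10), scaled by TMM and tested with edgeR 4.0.16 (quasi-likelihood F test, two-sided) in R 4.3.3, with p adjusted by Benjamini-Hochberg over the 12935 genes. All adjusted p-values are from this fit unless another tool is named; SEs come from the estimate and its F. The common biological coefficient of variation was 27.2%, and replicate pairs differed beyond counting noise (chi-square per degree of freedom 21.2 to 47.1). Positions, exon lengths and GC content were read from GENCODE M1, whose NCBIM37 assembly is that of mm9; 21709 symbols, Rad54b not among them, had a unique position. Promoters are from RefSeq on GRCm38.p6; Rad51l1 was looked up as Rad51b, Rad51l3 as Rad51d and Rad9 as Rad9a. Motifs were chosen after promoters had been seen.

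The members and lists were chosen with earlier results of these data known. Named were every called member, up to 3 abundant members of each list that did not pass, 11 central genes such as Brca2 and Atm where tested, members that failed the filter (a few genes are not reported here), and up to 4 higher and 4 lower of the other repair genes; other genes were named after their values were seen. DESeq2 1.42.0 and limma 3.58.1 served as alternatives. Spread between samples is what the p-values measure; the sources used here do not tie samples to animals, so it may be technical.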

Additional observations from a re-analysis of the deposited data

How the results depend on the processing

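The direction of all 12 called repair genes and of Kdm1a held under all 14 alternatives in which each was fitted, and Kdm1a passed in each. Of the 12 calls, 12 were kept with DESeq2 size factors, library totals, the DESeq2 Wald test, no filter and the length and GC correction, 11 with limma-voom and 10 with 10 CPM in 3 libraries, where Parp9 was not fitted; Xrcc3 was lost under both. Leaving out 1 library gave 4 to 8 repair genes higher and 2 to 4 lower, 932 to 1466 of all genes higher and 638 to 1346 lower, and 4 to 5 other repair genes higher and 2 to 6 lower; the cause was not tested beyond the smaller number of samples. The median log2 fold change of the repair genes was 0.039 with library totals, 0.024 with no filter, 0.056 with 10 CPM in 3 libraries and 0.027 with the length and GC correction, and -0.036 to 0.057 with 1 library left out; its sign changed between settings. Other repair genes numbered 4 higher with the length and GC correction; the cause was not tested. With a replicate block, 9 of the 12 calls were kept (Parp12, Rad23b and Xrcc3 were lost and Rad51l3 was gained), with 6 higher and 4 lower, and 5 of the other repair genes were lower. Deviations of same-numbered libraries correlated at -0.029, 0.11 and -0.021, and those of differently numbered libraries at -0.098 to 0.13. These values cannot settle whether same-numbered samples shared a batch. At this depth genes of a few counts, such as Fancf, Msh5 and Dmc1, were measured with wide errors.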
